A study of Mus musculus with 24 samples.

Results

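Liver of mice fed 0.5% phloridzin was compared with liver of mice fed the same diet without it. The 12 arrays labelled with these diets, of 24 in the series, were chosen by diet, and arrays that were near-identical in signal were averaged into 1 RNA sample. This left 6 RNA samples, 4 control and 2 at 0.5%, of 11 in the series. Phloridzin is a glucoside of apple that blocks sodium-glucose cotransport in gut and kidney, and the series title asks what it does to blood glucose and to hepatic expression; blood glucose was not analysed here. The mice were male BALB/c, obtained at 6 weeks of age and kept for a week on standard chow. They then ate purified AIN-93G diet with 0% or 0.5% phloridzin freely for 14 days, with 6 mice per diet and 3 to a cage. The labels give a dark period that runs through the working day and do not give the hour of death. Other diets of the series held 0.1% and 1.0% phloridzin, and nothing but the phloridzin content distinguishes the diets in the labels.

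The hepatocyte secretes most plasma proteins. In the acute phase response, cytokines such as interleukin-6 and interleukin-1 act on it through STAT3, NF-kB and C/EBP factors to raise serum amyloid A, orosomucoids and other reactants. Bile acids are made from cholesterol by Cyp7a1, which the receptor Fxr (Nr1h4) restrains through the repressor Shp (Nr0b2). Many liver transcripts also follow the circadian clock, so a difference in the hour or phase of sampling reaches detoxification, bile acid and amino acid genes as well as clock genes.

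The arrays labelled as separate mice did not behave as 12 separate RNAs. Over 1463 bright genes, the SD of the log2 difference was 0.0436 to 0.0563 for 5 pairs: control replicates 1 and 3, control 2 and 4, and 0.5% replicates 1 and 6, 2 and 3, and 4 and 5. The 0.5% replicates 1 and 6 differed from 2 and 3 by 0.136 to 0.137, less than the 0.164 to 0.281 found between control samples, and these 4 arrays were counted as the first 0.5% sample. Replicates 4 and 5 form the second, which differed from the first by 0.326 to 0.346. Control and 0.5% arrays differed by 0.252 to 0.363. The distance between the 2 samples at 0.5% lay within the range of distances to control. The sources used do not tie RNA samples to mice, and p-values therefore measure only the spread between these samples, which may be technical. All values below are log2 signals after quantile normalization, with 3.00 as the floor, and differences are 0.5% minus control on that scale.

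RNA integrity as read by control probes was not the same in both groups. The Gapdh signal at the 3' end minus that at the 5' end was -0.345 ± 0.0447 (SD, n = 4) in control and -0.18 and -0.18 in the 0.5% samples. Neither 0.5% sample overlapped control, and the exact two-sided permutation p was 0.0667, the smallest that 15 splits allow. For Actb the values were 1.41 ± 0.0965 (SD, n = 4) against 1.49 and 1.78 (p = 0.133 in the same exact test), with the first 0.5% sample inside the control range. The control probe sets for pyruvate carboxylase (Pcx) moved further apart than those for Gapdh. At the 3' end both 0.5% samples were inside the control range, with a difference of 0.013. At the 5' end they read 5.55 and 5.62, below the control range of 6.15 to 6.685, with a difference of -0.72. The other Pcx control probe sets gave -0.51 and -0.79. The exact test was not run for Pcx. The part of RNA integrity in the differences below was not tested. Hepatocyte transcripts were abundant: albumin (Alb) stood at 13.47 on average in control, 13.55 in the first and 13.41 in the second 0.5% sample, and apolipoprotein A1 (Apoa1) at 13.95, 13.93 and 13.89. The 9 measured hepatocyte markers together had a mean relative to control of -0.08 in each 0.5% sample, below the control range of -0.05 to 0.03. Tat had the largest fall among them (-0.49) and also counts among the amino acid genes below. The median difference of the 9 was -0.04, and their mean without Tat was not computed. Of the 9, Tat and Apoc3 lay below all controls and Ttr above (22.2% and 11.1%, against 8.69% and 9.16% of all genes). The median of the list relative to all genes was -0.05, and turned to 0.06 both with centred arrays and without scaling. The part of this shift in the lower metabolic genes described below was not tested.

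Of 13118 genes tested, 1 was called at 0.5% (limma adjusted p under 0.05, 0.00762%), and 685 (5.22%) had an unadjusted p under 0.05, 330 of them higher and 355 lower. The called gene was Rbmxl2, whose product binds RNA and is best known in testis. It stood at 5.01, 5.50, 4.56 and 5.32 in the control samples and at the floor of 3.00 in both 0.5% samples. It therefore fell by at least 2.09 (limma adjusted p = 0.0482), from a level that was dim in control liver too. The call was lost in 9 of 17 other settings, among them a floor of 32, with adjusted p from 0.000251 to 1, and the difference shrank to -0.23 with that floor. Leaving out control replicates 1 and 3, control replicates 2 and 4, control replicate 6 or either 0.5% sample ended it.

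A gene was counted as shared by both 0.5% samples when both lay beyond all 4 control samples on the same side. Of the 13118 genes, 1202 (9.16%) lay above and 1140 (8.69%) below, while 10776 overlapped control. At a distance of at least 0.5 from the nearest control sample, 27 (0.206%) lay above and 28 (0.213%) below. These are counts of non-overlap and not tests. The median difference over all genes was 0.01. It moved by -0.10 when arrays were centred on their medians and by -0.20 without scaling, and the counts above and below then became 576 and 2568, and 192 and 2498. Values under the other scalings are therefore also given for some of the lists below. Counts of a list given without them hold for quantile normalization only.

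**Figure D1:**
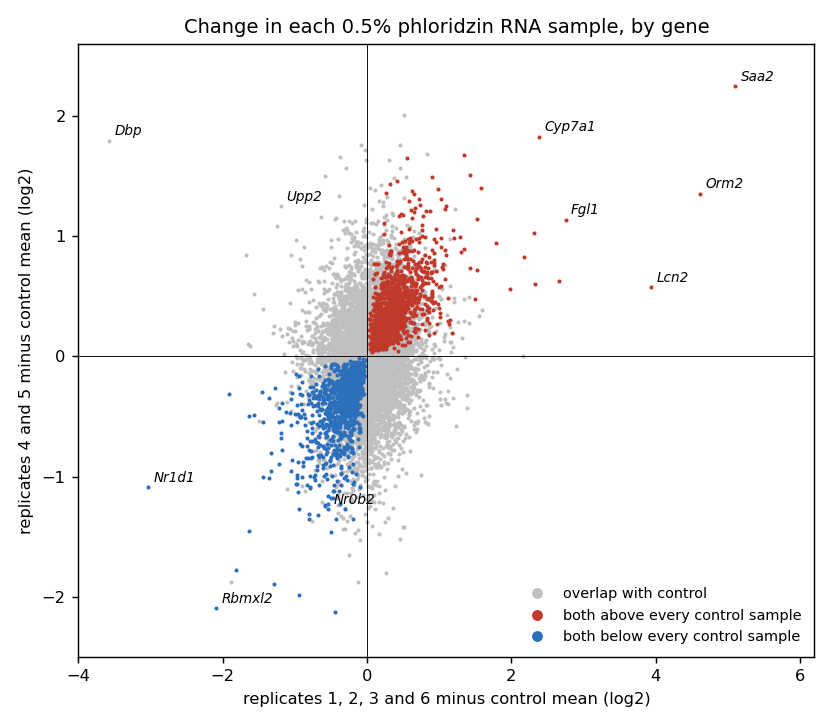
Each point is a gene, placed by its log2 signal in the first (horizontal) and second (vertical) 0.5% RNA sample minus the control mean. Red points are the 1202 genes above and blue points the 1140 below all 4 control samples in both. Saa2, Orm2, Fgl1 and Cyp7a1 lie high in both, Nr1d1 low in both, and Dbp low in the first and high in the second.

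Acute phase reactants were among the shared genes with the widest separation from control. Saa2, a serum amyloid A carried on high-density lipoprotein, read 7.82, 7.53, 8.53 and 7.73 in control and 13.004 and 10.15 at 0.5%. Orm2, an orosomucoid (acid glycoprotein), read 6.14, 6.01, 5.95 and 6.00 in control and 10.64 and 7.38 at 0.5%. Fgl1, a fibrinogen-like hepatokine, read 9.78, 9.71, 9.002 and 8.68 in control and 12.05 and 10.43 at 0.5%. In each of them the first 0.5% sample was the highest of the 6 by far, the second came next, and the groups did not overlap. The differences were 3.68 ± 0.70 (SE) for Saa2, 2.99 ± 0.62 for Orm2 and 1.94 ± 0.44 for Fgl1, and none passed over all genes (limma adjusted p = 0.412 for each). The 4 arrays of the first sample read 12.996 to 13.009 for Saa2 and 10.6 to 10.8 for Orm2. These arrays were joined because they were near-identical, so their agreement adds no support.

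Lcn2, Saa1 and Apcs were also highest in the first 0.5% sample. Lcn2, which withholds iron by binding siderophores, stood at 6.402, 6.33, 6.84 and 6.45 in control and at 10.44 and 7.08 at 0.5%, a difference of 2.25 ± 0.65 (limma adjusted p = 0.62). Saa1 read 11.36, 10.50, 11.99 and 10.71 against 13.46 and 12.17 (1.67 ± 0.46), and its other probe set gave a difference of 2.37. Apcs, serum amyloid P, read 12.31, 12.25, 12.12 and 11.94 against 13.01 and 12.53 (0.62 ± 0.14). In all 3 the second 0.5% sample was clear of control by 0.18 to 0.24 only. Orm1 lay above control in the second sample by 0.0028 only. The Saa2 probe set is of a class that can read related transcripts, and cross-reading of Saa1 was not tested.

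The acute phase list held 24 measured genes. Both 0.5% samples lay above all controls in 10 of them (41.7%, against 9.16% of all genes): Saa2, Orm2, Saa1, Lcn2, Apcs, Orm1, Itih4, Steap4, Fgg and Hpx. For Hpx, Steap4, Fgg and Itih4 the nearer 0.5% sample was clear of control by 0.02 to 0.08 only. Only Hamp2, a hepcidin, lay below, at 8.63 and 8.93 against 9.22 ± 0.29 (SD, n = 4). The second sample was clear of the lowest control by 0.0075 only for Hamp2. None of the 24 was called, and 10 had an unadjusted limma p under 0.05 (9 higher and 1 lower), as did 5.22% of all genes. Among the higher ones, Orm3 stood at the floor in control and in the second 0.5% sample. The median difference of the list was 0.21. Relative to all genes that median was 0.20, and 0.22 both with centred arrays and without scaling. With centred arrays 4 members lay above (16.7%, against 4.39% of all genes), and without scaling 6 (25%, against 1.46%). Several well known reactants did not separate. The second 0.5% sample lay inside or below the control range for haptoglobin (Hp, at 12.75), Crp (11.53), Lbp (8.77) and Serpina3n (10.77), whereas the first was above it in all 4 (13.13, 11.88, 9.55 and 11.05). The mean of the list relative to control was 0.92 in the first and 0.25 in the second sample, against -0.12 to 0.09 in the controls. Without the second sample 18 members lay above, and without the first 11 did. A single sample passes control more easily. Over all 13118 genes, 5207 then lay beyond control on either side without the second sample, and 5997 without the first. These counts take both sides, whereas the 18 and 11 are rises only, so they do not give a like share.

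**Figure D2:**
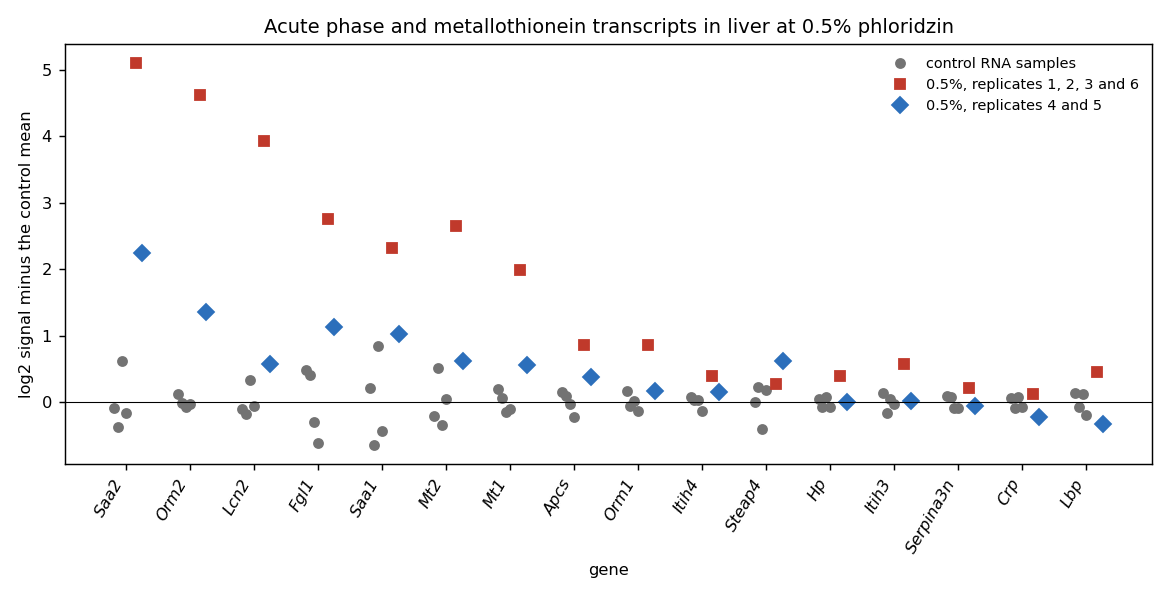
Log2 signal minus the control mean (vertical) for 16 acute phase, fibrinogen-like and metallothionein genes. Grey circles are the 4 control RNA samples, the red square the first and the blue diamond the second 0.5% sample. From Saa2 to Steap4 both 0.5% samples lie above every control sample, and from Hp to Lbp the second does not.

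Of 16 measured genes of acute phase signalling, 1 lay above (Il6st) and 1 below (Nfkbia), each 6.25% and near the 9.16% and 8.69% of all genes, with a median difference of -0.01. Nfkbia, the NF-kB inhibitor that NF-kB itself induces, stood at 9.92 and 9.83 against 10.35 ± 0.23 (SD, n = 4). Socs3, a STAT3 target, was 6.74 in the first and 8.60 in the second sample, while control ran from 6.50 to 7.96. Of 9 measured negative acute phase proteins, 1 lay above and 1 below (11.1% each), with a median difference of 0.00.

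Markers of other cells were set beside these values, since in whole liver fewer cells of a type and less RNA per cell cannot be told apart, and Lcn2 and Saa3 are also made by leukocytes. The 9 measured neutrophil markers of 13 listed had a mean relative to control of 0.10 in the first 0.5% sample and 0.79 in the second, against -0.11 to 0.18 in control samples. S100a8 read 5.96 and 7.29 against 5.66 on average in control, and Ltf 3.47 and 4.33 against 3.20, near the floor. Mmp9 was the 1 member of the 9 above all controls in both (11.1%, against 9.16% of all genes). In the sample with the highest Lcn2 and Saa2 the mean of the neutrophil markers was inside the control range, and in the other it was above. For the 12 measured Kupffer cell markers the means were 0.02 and 0.06, against -0.05 to 0.11 in control. The 4 measured cholangiocyte markers of 9 listed had means of 0.67 and 0.57 against -0.19 to 0.18, at dim control levels. The part of these cells in the differences was not tested.

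The promoters of some of these reactants carry C/EBP letters, and those of Apcs, Itih4 and Fgg do not. The windows of Saa1, Saa2, Orm2 and Lcn2 are shown because these genes had large differences. RefSeq windows of 300 bases (250 before to 50 after the annotated start, GRCm38.p6) existed for 21 of the 24 list members. The motif TTGCNNAA, searched on both strands, was found in 11 of the 21 (52.4%), against 10.8% of all 32851 windows and 8.53% of those of the genes tested. It was present in 6 of the 9 members above control with a window (Saa1, Saa2, Orm2, Lcn2, Hpx and Steap4) and in 5 of the 11 that overlapped control (Saa3, Saa4, Orm3, Fga and Fgb). A match is a description of letters only. The first 280 bases are printed 5′ to 3′ with the match in capitals, for Saa1 (chr7:46742951-46743230, minus strand), Saa2 (chr7:46751583-46751862, plus strand), Orm2 (chr4:63362199-63362478, plus strand) and Lcn2 (chr2:32387710-32387989, minus strand).
Saa1: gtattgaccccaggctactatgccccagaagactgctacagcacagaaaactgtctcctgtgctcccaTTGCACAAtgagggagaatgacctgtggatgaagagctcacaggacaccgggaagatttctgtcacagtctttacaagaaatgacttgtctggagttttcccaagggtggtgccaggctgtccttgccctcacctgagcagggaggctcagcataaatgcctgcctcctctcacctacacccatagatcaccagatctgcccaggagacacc
Saa2: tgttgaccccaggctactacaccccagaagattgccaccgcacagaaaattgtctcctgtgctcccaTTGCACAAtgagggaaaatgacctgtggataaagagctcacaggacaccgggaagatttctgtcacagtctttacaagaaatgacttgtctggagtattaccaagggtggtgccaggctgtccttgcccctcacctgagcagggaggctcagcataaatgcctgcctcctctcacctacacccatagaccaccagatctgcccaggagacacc
Orm2: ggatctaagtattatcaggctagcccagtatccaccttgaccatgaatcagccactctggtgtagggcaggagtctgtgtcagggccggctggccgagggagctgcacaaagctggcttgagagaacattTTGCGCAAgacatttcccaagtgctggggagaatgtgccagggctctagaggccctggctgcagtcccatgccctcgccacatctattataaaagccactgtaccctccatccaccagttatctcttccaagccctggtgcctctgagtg
Lcn2: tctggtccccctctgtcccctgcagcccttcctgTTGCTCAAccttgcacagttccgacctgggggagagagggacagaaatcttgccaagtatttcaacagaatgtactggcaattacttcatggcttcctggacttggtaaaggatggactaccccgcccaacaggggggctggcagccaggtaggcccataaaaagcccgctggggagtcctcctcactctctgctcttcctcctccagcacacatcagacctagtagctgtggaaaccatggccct
The Saa1 and Saa2 windows are near copies, with 287 identical of 301 aligned columns (95.3%), and the match begins 182 and 183 bases before the start. In Orm2 it begins 120 and in Lcn2 216 bases before the start.

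Metallothioneins, small proteins that bind zinc and copper and are induced by metals, glucocorticoids and the acute phase, stood in the same order. Mt1 read 6.35, 6.21, 6.00 and 6.04 in control and 8.13 and 6.71 at 0.5%. Mt2 read 5.00, 5.73, 4.86 and 5.25 in control and 7.87 and 5.83 at 0.5%. Both were highest in the first 0.5% sample, and the second exceeded the highest control by 0.36 for Mt1 and 0.10 for Mt2. The differences were 1.27 ± 0.34 (limma adjusted p = 0.598) and 1.64 ± 0.53 (adjusted p = 0.693). A second Mt1 probe set lay at the floor in all controls. Slc39a4, a zinc importer, read 7.73 and 7.91 against 7.27 on average in control, which made 3 of 6 members of the zinc list above control (50%, against 9.16% of all genes) and 0 below. With centred arrays 2 lay above (33.3%, against 4.39% of all genes) and 0 below. Without scaling 2 lay above (33.3%, against 1.46%) and 1 below (16.7%, against 19.1%). The list mean was 0.80 in the first and 0.31 in the second sample, against -0.04 to 0.02 in control. At 0.1% it ran from -0.25 to 0.56, so a sample at that dose exceeded the second 0.5% sample. At 1.0% it was 0.10 and 0.09.

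The metallothionein promoter windows are shown for the metal response letters TGCACNC and TGCGCNC, which on both strands occur in 25.7% of all windows and 35% of those of tested genes. Mt1 (chr8:94178839-94179118, plus strand) holds them at positions -23, 3 and 21 from the annotated start, and Mt2 (chr8:94172368-94172647, plus strand) at -223, -128, -50 and 5. The zinc exporters Slc30a1 and Slc30a10, which overlapped control, hold them too.
Mt1: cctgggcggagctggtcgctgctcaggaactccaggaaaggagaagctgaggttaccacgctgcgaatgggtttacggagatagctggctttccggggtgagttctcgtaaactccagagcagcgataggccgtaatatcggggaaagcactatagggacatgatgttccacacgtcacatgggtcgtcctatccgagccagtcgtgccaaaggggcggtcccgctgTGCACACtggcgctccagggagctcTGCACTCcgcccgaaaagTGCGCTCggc
Mt2: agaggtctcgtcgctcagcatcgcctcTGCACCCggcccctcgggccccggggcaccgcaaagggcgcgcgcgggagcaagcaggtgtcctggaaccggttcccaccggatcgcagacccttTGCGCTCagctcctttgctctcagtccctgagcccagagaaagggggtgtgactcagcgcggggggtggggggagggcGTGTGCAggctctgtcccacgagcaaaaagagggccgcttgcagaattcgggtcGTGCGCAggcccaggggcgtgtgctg

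Cyp7a1 and its repressor stood on opposite sides of control. Cyp7a1, which sets the pace of the classical bile acid pathway, read 6.06, 5.42, 5.83 and 5.45 in control and 8.07 and 7.52 at 0.5%. Nr0b2, the repressor of Cyp7a1 transcription, read 10.09, 9.85, 10.32 and 9.91 in control and 9.50 and 8.77 at 0.5%. The groups did not overlap for either, with Cyp7a1 high in both 0.5% samples and Nr0b2 lowest in the second. Differences were 2.10 ± 0.49 and -0.90 ± 0.21 (limma adjusted p = 0.415 for both), and the other Cyp7a1 probe set gave 1.29. In a fit of the 6 control and 0.5% samples alone, Cyp7a1 was the 1 gene called.

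Of 15 measured genes of bile acid synthesis and feedback, 3 lay above all controls (Cyp7a1, Nr1h4 and Akr1d1, 20% against 9.16% of all genes) and 2 below (Nr0b2 and Cyp7b1, 13.3% against 8.69%). Nr1h4, the bile acid receptor, stood at 9.10 and 9.11, but the highest control reached 9.08. Akr1d1, a steroid reductase of the pathway, stood at 9.55 and 9.85 against 9.25 ± 0.20 (SD, n = 4). Cyp7b1, of the alternative pathway, read 12.44 and 12.61 against 12.82 ± 0.12 (SD, n = 4). Cyp8b1, which sets cholic acid content, read 10.29 and 10.17, inside the control range. Among 15 sterol and bile acid transporters, 1 lay above and 3 below (20%, against 8.69% of all genes). Abcg8, a subunit of the biliary sterol exporter, read 8.53, 8.34, 8.31 and 8.43 in control and 8.001 and 7.89 at 0.5% (-0.45 ± 0.13, limma adjusted p = 0.617). Its partner Abcg5 overlapped control, with a difference of -0.03. With centred arrays 1 of the 15 synthesis and feedback genes lay above and 7 below (46.7%, against 19.6% of all genes), and without scaling 1 and 3 (20%, against 19.1%).

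Several glutathione transferases, which conjugate electrophiles to glutathione, lay below control in both 0.5% samples. Gstm2 read 9.07, 8.86, 8.94 and 8.85 in control and 8.36 and 8.04 at 0.5%. Gstm1 read 11.95, 12.03, 11.89 and 12.11 in control and 11.57 and 11.55 at 0.5%. Gstm6 read 9.52, 9.58, 9.42 and 9.47 in control and 9.09 and 8.87 at 0.5%. In all 3 both 0.5% samples lay below every control, and the second was the lower. The differences were -0.73 ± 0.13 for Gstm2 (limma adjusted p = 0.337), -0.43 ± 0.10 for Gstm1 (0.412) and -0.52 ± 0.12 for Gstm6 (0.415). All 4 Gstm1 probe sets were lower, by -0.27 to -0.47. These genes are close paralogs whose probe sets may read one another.

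Of 25 measured glutathione transferase and NRF2 target genes, 10 lay below all controls (40%, against 8.69% of all genes) and 0 above. Beside the 3 above these were Gsta2, Gstt1, Gstk1, Gstz1, Gstm4, Gstt2 and Gstp1. The other 15 overlapped control, among them Gsta3 (11.80 and 11.75 against 11.73 on average) and Mgst1 (13.53 and 13.57 against 13.49). Gsta2 was 7.66 and 8.16 against 8.41 ± 0.17 (SD, n = 4). The median difference was -0.17, and relative to all genes -0.18 with quantile normalization and -0.19 both with centred arrays and without scaling. The list mean was -0.15 in the first and -0.19 in the second sample, against -0.05 to 0.06 in control. Classical NRF2 targets that are not transferases overlapped control: Nqo1 differed by 0.00, Gclm by -0.05, Hmox1 by -0.21 and Gclc by 0.17. None of the 25 was called.

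Some genes of amino acid catabolism also lay below control. Tat, which opens tyrosine degradation and is induced by glucocorticoids and glucagon, read 11.26, 11.02, 11.20 and 11.21 in control and 10.66 and 10.71 at 0.5%. Cth, which makes cysteine from cystathionine, read 11.43, 11.45, 11.55 and 11.41 in control and 11.06 and 11.17 at 0.5%. Neither overlapped control, with differences of -0.49 ± 0.13 (limma adjusted p = 0.597) and -0.34 ± 0.10 (0.617). Of 24 measured members, 7 lay below all controls (29.2%, against 8.69% of all genes) and 0 above: Tat, Cth, Gpt, Hal, Bckdha, Gnmt and Hpd. The urea cycle enzymes Cps1, Otc, Asl and Arg1 overlapped control, as did Uroc1 and Mat1a, with differences of 0.50 and 0.19. The median difference was -0.13. With centred arrays 13 members lay below (54.2%, against 19.6% of all genes), and without scaling 10 (41.7%, against 19.1%). The list mean was -0.16 in the first sample and -0.06 in the second, against -0.09 to 0.09 in control, so the second did not stand apart.

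Xenobiotic cytochrome P450 genes and their regulators lay below control in 8 of 28 (28.6%, against 8.69% of all genes) and above in 1, the receptor Ahr (3.57%, against 9.16%). Cyp1a2 read 10.50 and 11.04 against 11.29 ± 0.18 (SD, n = 4), but the lowest control was 11.05. Cyp2d9 read 12.67 and 12.72 against 12.92 ± 0.05 (SD, n = 4), and Cyp2f2 12.65 and 12.76 against 12.90 ± 0.02 (SD, n = 4). Cyp2b10, the marker of the receptor CAR, read 3.75, 4.40, 6.07 and 5.22 in control and 3.23 and 3.40 at 0.5%, near the floor. The control range was wider than its difference of -1.54 ± 0.50 (limma adjusted p = 0.707). Cyp2e1 and Cyp3a11 overlapped control. The median of the list relative to all genes was -0.16, and -0.08 both with centred arrays and without scaling. The list mean was -0.23 in the first sample and -0.0036 in the second, against -0.13 to 0.12 in control, so the second did not stand apart. It was -0.26 and -0.27 in the samples at 1.0%, and ran from -0.16 to -0.02 at 0.1%.

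**Figure D3:**
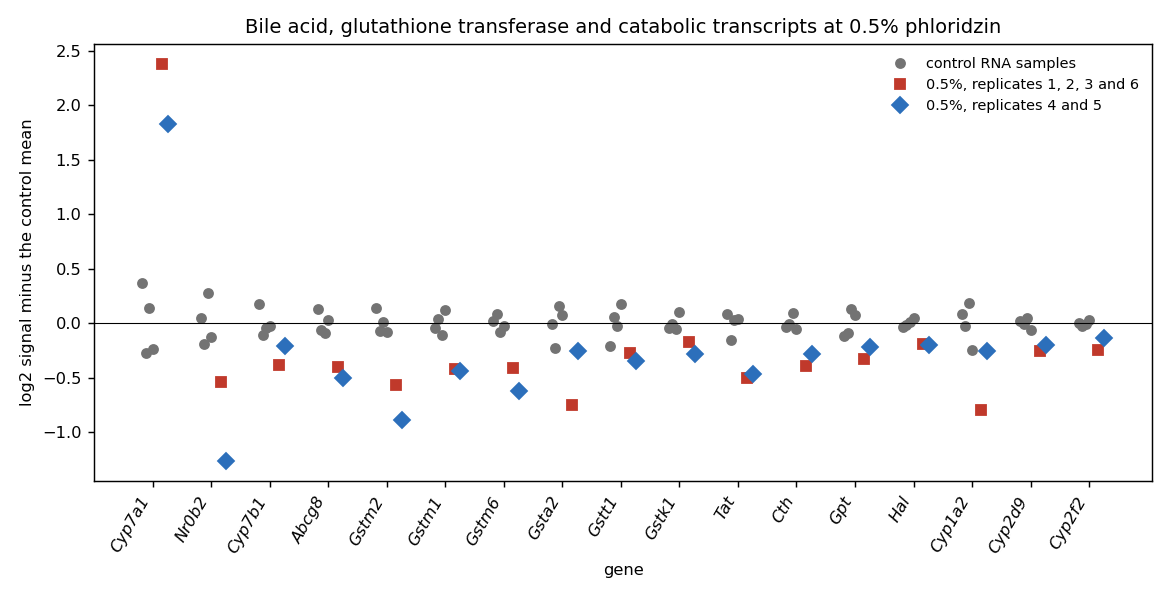
Log2 signal minus the control mean (vertical) for 17 genes of bile acid metabolism, glutathione conjugation, amino acid catabolism and xenobiotic metabolism, with symbols as for the acute phase genes. Cyp7a1 alone lies above control, and in the other 16 both 0.5% samples lie below every control sample.

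After Rbmxl2, the smallest adjusted p was that of Tsc22d3 (Gilz), a leucine zipper protein best known as a glucocorticoid target. It read 7.97, 7.75, 8.09 and 8.14 in control and 7.10 and 7.11 at 0.5%, a difference of -0.89 ± 0.15 (limma adjusted p = 0.202). Both 0.5% samples were at 1 level, well below control, and a second probe set gave -0.70 while the other 2, dimmer or of the class that reads related transcripts, gave 0.06 and -0.01. Depp1, a target of FOXO and progesterone signalling, read 9.94, 9.98, 10.59 and 9.94 in control and 9.18 and 9.38 at 0.5% (-0.83 ± 0.24, adjusted p = 0.617), and its second probe set gave -0.90.

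Among 19 measured immediate early genes, 3 lay below all controls (15.8%, against 8.69% of all genes) and 2 above (10.5%, against 9.16%). Dusp1, a MAP kinase phosphatase, read 10.27, 10.78, 10.27 and 10.27 in control and 9.22 and 9.86 at 0.5% (-0.85 ± 0.18, limma adjusted p = 0.412). Zfp36, which destabilises AU-rich mRNAs, read 7.56 and 8.72 against 9.02 ± 0.11 (SD, n = 4). Junb was 4.05 and 3.96 against 5.02 ± 0.30 (SD, n = 4), a dim signal. Jun and Klf4 were the 2 above, while Fos, Egr1 and Ier2 overlapped control.

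Further genes well below control had varied roles. The transcription factor Mycn read 4.82 and 5.15 against 6.04 ± 0.21 (SD, n = 4), while its other, dimmer probe sets gave differences of -0.04 and 0.27 against -1.06. Efna1, an ephrin ligand, read 7.37 and 7.46 against 8.33 ± 0.43 (SD, n = 4), and its second probe set gave a difference of -1.24. Frmd4b, a scaffold protein, read 8.68 and 8.65 against 9.37 ± 0.11 (SD, n = 4), with 3 of 4 other probe sets lower too. The keratin Krt23 read 5.04 and 5.15 against 6.10 ± 0.29 (SD, n = 4), and Cnot8, a deadenylase subunit, 7.74 and 7.68 against 8.31 ± 0.14 (SD, n = 4). Zkscan1, a zinc finger factor, read 6.998 and 7.39 against 7.87 ± 0.03 (SD, n = 4), a difference of -0.68, and its 5 dimmer probe sets gave -0.34 to 0.37. In Atg13, of autophagy initiation, the difference of -0.75 was not seen in its other probe sets (-0.04 and 0.28). All of these had limma adjusted p of 0.412 or more.

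Above control, Socs2, the feedback inhibitor of growth hormone signalling, read 6.27, 6.13, 6.12 and 6.35 in control and 8.39 and 7.05 at 0.5%. Cish, its relative and also a STAT5 target, read 6.87, 7.93, 5.56 and 7.87 in control and 8.08 and 8.36 at 0.5%. Socs2 was tight in control and well separated, whereas Cish ranged widely in control and was separated by 0.16. The differences were 1.501 ± 0.41 (limma adjusted p = 0.598) and 1.17 ± 0.56 (0.953). Of 17 growth hormone and sex-biased genes, 4 lay above all controls (23.5%, against 9.16% of all genes) and 3 below (17.6%, against 8.69%), and Igf1 overlapped at 11.86 and 11.80. With centred arrays 2 of the 17 lay above (11.8%, against 4.39% of all genes) and 4 below (23.5%, against 19.6%). Without scaling 1 lay above (5.88%, against 1.46%) and 5 below (29.4%, against 19.1%). The hepatocyte factor Onecut1 read 6.98 and 7.13 against 5.90 ± 0.43 (SD, n = 4), and the tetraspanin Tspan32 6.41 and 6.93 against 5.67 ± 0.15 (SD, n = 4). The arrays of the first sample ran from 5.74 to 6.89 for Tspan32, the lowest of them below control replicate 5 at 5.87. Its other probe set, near the floor, gave a difference of -0.06. Slc35a2, a UDP-galactose transporter, had a difference of 1.18 on 1 probe set and -0.19 to -0.03 on 5 others. Selenow (0.52 on 1 probe set, -0.15 on the other) and the histidyl-tRNA synthetase Hars (0.60 and 0.02) likewise rest on 1 probe set. Onecut1 gave 0.55 on its other probe set. The replication licensing factor Mcm2 read 6.69 and 6.31 against 5.17 ± 0.61 (SD, n = 4), but its other, dim probe set gave a difference of 0.055 against 1.33. Of 20 measured cell cycle genes 2 lay above (10%, against 9.16% of all genes) and 1 below (5%, against 8.69%).

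Several clock transcripts separated the 2 samples at 0.5% from each other more than from control. Dbp, a clock-driven PAR bZIP factor, read 9.87, 9.86, 7.93 and 7.63 in control and 5.24 and 10.62 at 0.5%. The first 0.5% sample was the lowest and the second the highest of the 6, and the controls themselves fell into a high and a low pair. The same arrangement held for Upp2, a uridine phosphorylase, at 7.48 and 9.91 against 9.18, 9.20, 8.15 and 8.15 in control. It held too for Nr1d2 (Rev-erb beta), at 8.02 and 10.10 against 9.94, 9.79, 9.31 and 9.29. Tef, related to Dbp, stood at 6.73 and 8.57 against 8.18 ± 0.34 (SD, n = 4). Their limma adjusted p was 0.983 or more.

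Nr1d1 (Rev-erb alpha), a repressor of the clock, was the exception and lay below control in both. It read 6.62, 6.69, 6.65 and 6.46 in control and 3.56 and 5.51 at 0.5%, a difference of -2.06 ± 0.42 (limma adjusted p = 0.412). Arntl (Bmal1), which Nr1d1 represses, read 6.29, 5.90, 6.69 and 6.62 in control and 7.06 and 6.78 at 0.5% (0.55 ± 0.29, adjusted p = 0.961), and its other, dim probe set gave -0.17. Among 13 core clock genes, 1 lay above and 1 below all controls (7.69% each), and among 12 clock output genes 0 lay above and 1, Leap2, below (8.33%). These shares are near those of all genes, 9.16% above and 8.69% below, apart from the 0. The mean of the output list was -0.59 in the first and 0.46 in the second sample, against -0.26 to 0.19 in control. The sample with the largest acute phase and metallothionein signals was thus also the one with the lowest clock output, and the part of clock phase in the other differences was not tested.

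**Figure D4:**
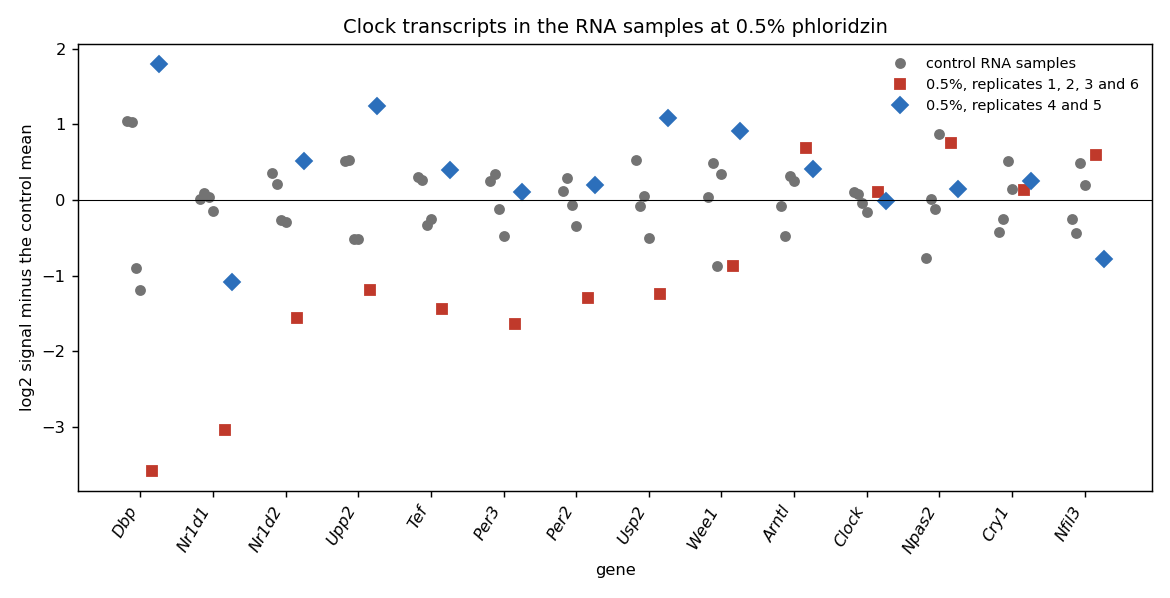
Log2 signal minus the control mean (vertical) for 14 clock genes in the 4 control RNA samples (grey), the first (red square) and the second 0.5% sample (blue diamond). From Dbp to Tef the first sample lies below and the second above control, except for Nr1d1, where both lie below.

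Of 11 gluconeogenesis genes, 1 lay above all controls (Ppargc1a, 9.09% against 9.16% of all genes) and 2 below (Creb3l3 and Pcx, 18.2% against 8.69%), by at most 0.0951. With centred arrays 1 lay above and 5 below (45.5%, against 19.6% of all genes). Without scaling 0 lay above and 4 below (36.4%, against 19.1%). Pck1, which makes phosphoenolpyruvate, read 10.71 and 11.21 against 11.34 ± 0.23 (SD, n = 4), and the glucose-6-phosphatase G6pc 11.14 and 10.62, with a difference of -0.20 ± 0.32. Of 17 genes of glycolysis, fructose use and glucose entry, 3 lay above (Slc5a1, Gckr and Pfkfb2, 17.6% against 9.16%) and 0 below. With centred arrays 2 lay above (11.8%, against 4.39% of all genes) and 4 below (23.5%, against 19.6%). Without scaling 0 lay above and 6 below (35.3%, against 19.1%), so the direction depended on scaling. Gckr read 9.75 and 9.89 against a highest control of 9.72, and the arrays of the first sample ran from 9.39 to 9.89. The targets of phloridzin were dim in liver. Slc5a1 (Sglt1) read 3.45, 3.46, 3.00 and 3.00 in control and 3.68 and 4.16 at 0.5%. The arrays of the first sample ran from the floor of 3.00 to 3.98 for Slc5a1, and its other probe set gave a difference of -0.12. Slc5a2 (Sglt2) read 4.99 and 4.85, inside the control range. The hepatic glucose carrier Slc2a2 read 11.01 and 11.48, on both sides of the lowest control.

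The other doses were measured in 3 RNA samples at 0.1% and 2 at 1.0%, and were set beside 0.5% in 1 fit. No gene passed between 0.5% and the mean of the other doses (limma, smallest adjusted p = 0.385; 0 of 13118, 0%), and 717 (5.47%) had an unadjusted p under 0.05. The acute phase genes were near control at 0.1%, with Saa2 at 7.998, 8.33 and 7.75. At 1.0% the sample of replicates 2, 3, 5 and 6 read 10.96 for Saa2, 7.60 for Orm2, 7.498 for Lcn2 and 10.28 for Fgl1, above all controls, and replicate 4 read 8.13, 6.07, 5.82 and 9.42. For Saa2, 0.5% minus the other doses was 2.79 ± 0.68 (limma adjusted p = 0.578).

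Nr0b2 was lower at every dose than in any control sample, at 9.27, 9.81 and 9.71 with 0.1% and 8.93 and 9.34 with 1.0%. Tsc22d3 did likewise, at 7.45, 7.35 and 7.64 with 0.1% and 7.63 and 7.67 with 1.0%. Gstm2, by contrast, stayed at 8.84 to 9.02 with 0.1% and read 9.09 and 8.86 with 1.0%, and 0.5% minus the other doses was -0.74 ± 0.13 (limma adjusted p = 0.385). For Gstm6 that difference was -0.67 ± 0.12, with the same adjusted p. These doses share their control samples, so agreement among them against control is not independent.

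**Figure D5:**
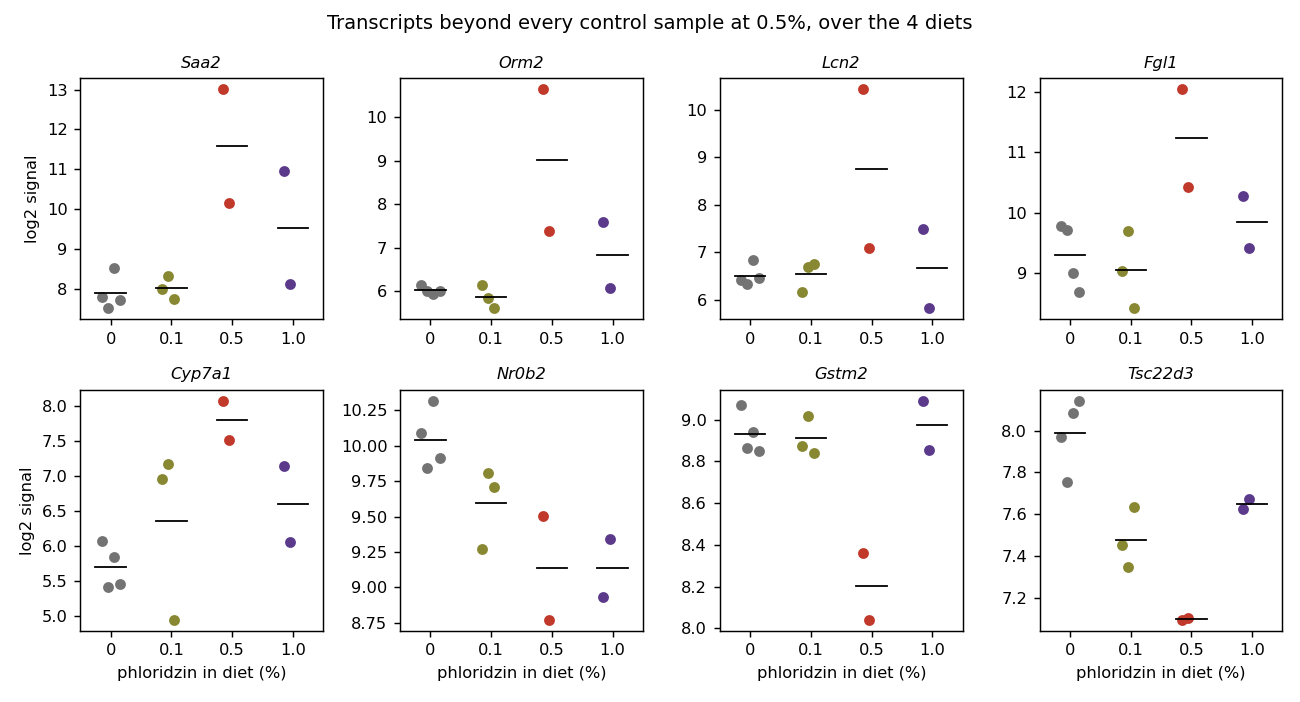
Log2 signal (vertical) of 8 genes in each RNA sample against the percent of phloridzin in the diet (horizontal), with a bar at the group mean. Axes differ between panels and do not start at 0. Saa2, Orm2, Lcn2 and Fgl1 are high at 0.5% and in 1 of 2 samples at 1.0%, and Gstm2 is low at 0.5% only.

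How the near-identical arrays are counted decides how many genes pass. With only repeat hybridisations joined, the first 0.5% sample splits into 2 (replicates 1 and 6, and 2 and 3), and 18 genes were called in limma, all of them among the 2342 shared genes. They included Saa2, Orm2, Fgl1, Apcs, Cyp7a1, Nr1d1, Gstm2, Tsc22d3, Dusp1, Krt23, Cnot8, Zkscan1, Selenow and Rbmxl2. If those pairs of arrays are 1 RNA, those p-values are too small. Without the second 0.5% sample 8 genes were called, and without the first 2.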

How the data were processed

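Total liver RNA was hybridised to 1-colour arrays of 45101 probe sets, and the authors deposited 1 table of linear intensity per probe set and array. How probes were summarised, background-corrected and scaled is not given in the sources used here. All 24 arrays were quantile-normalized together, floored at 8 (3 on the log2 scale, reached by 5.44% of values) and put on the log2 scale. Array medians ranged from 11.4 to 18 in the control and 0.5% arrays, and the number of arrays limits the precision. The dimmest 40% of probe sets were left out, which kept 27023, and the brightest probe set stood for its gene. Of all probe sets 34958 had 1 gene in the platform annotation, 932 several and 9160 none listed, and 34754 matched RefSeq.

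Near-identical arrays were averaged as 1 RNA sample, and 4 arrays of other diets that shared 1 RNA across labels entered no comparison. All 11 RNA samples were fitted in 1 limma model (version 3.58.1, R 4.3.3, eBayes with trend, 7 residual degrees of freedom), with Benjamini-Hochberg adjustment over 13118 genes. The scripts were tested on simulated data. Same-numbered control and 0.5% arrays had deviations that correlated at -0.069 to 0.047, so the numbers did not pair samples.

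Named were called genes, 12 genes on each side (mean log2 of at least 6) with the widest gap between the nearer 0.5% sample and the nearest control, up to 5 genes per list by unadjusted p, a panel of liver genes, and the 10 genes with the largest difference between the 0.5% samples. Members named outside that rule, such as Itih4, Steap4, Gstk1 and Bckdha, were chosen after their values were seen. The members and lists were chosen with earlier results of these data known. Promoter windows are RefSeq sequence. Alternatives changed the scaling, floor, filter, probe set choice, sample joining, samples in the fit, trend and each sample left out.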

Additional observations from a re-analysis of the deposited data

Results flagged for a closer look

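Among 66 genes checked, which leave out many of those named above, 3 had a control sample far from the other 3 by Dixon's criterion. Chance meets that criterion in about 1 in 20 groups. Depp1 read 10.59 in control replicate 5, against 9.94 to 9.98 in the others. Dusp1 read 10.78 in the sample of control replicates 2 and 4, against 10.27 in the others. Efna1 read 8.97 in control replicate 5, against 8.05 to 8.17 in the others. In each the outlying control was the highest, and both 0.5% samples lay below the lowest control.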

How the results depend on the processing

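Against the 1 gene called in limma, 3 were called with median-centred arrays, 2 without scaling, 4 with a floor of 32, 9 with no filter on dim probe sets, 18 with only repeat hybridisations joined, 448 with every array a separate sample and 0 with eBayes without trend. Leaving out 1 RNA sample gave 0 to 8 genes (0 without control replicates 1 and 3, control 2 and 4 or control 6, 2 without the first and 8 without the second 0.5% sample). The replicate block on separate arrays gave 433, although the numbers did not pair samples. Against 2342 genes beyond control in both 0.5% samples, the count was 1523 with only repeats joined and 705 with separate arrays, and leaving out a sample gave 3091 to 5997, since fewer samples must be passed. Against 0 genes between 0.5% and the other doses in limma (717 at an unadjusted p under 0.05), a floor of 32 gave 15, no filter 13, repeats joined 16 and separate arrays 2606, and leaving out a sample gave 0 to 5. Separate arrays count repeats of 1 RNA as replicates.

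Of the same 66 genes over 17 alternatives, 8 reversed in 1 or more. Upp2 became -0.13 with centred arrays, -0.23 without scaling, -0.38 with repeats joined, -0.55 with separate arrays and -0.55 with the replicate block, -0.14 without control replicate 5, -0.14 without control replicate 6 and -1.19 without the second 0.5% sample, up to 1.25 without the first. With probe sets that can read related transcripts left out, Arntl was -0.17, Selenow -0.15 and Socs3 -0.20, each on another probe set. Over samples left out, the lowest values came without the second 0.5% sample and the highest without the first: Dbp -3.58 to 1.79, Tef -1.45 to 0.39, Nr1d2 -1.56 to 0.52, Socs3 -0.29 to 1.57 and Foxq1 -0.084 to 1.76. The cause of the other changes was not tested. Dim probe sets near the floor limit Rbmxl2, Cyp2b10, Slc5a1 and Ltf.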
